A study of Mus musculus with 2 samples.

Results

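The genes described here are the heat shock protein and DnaJ chaperone families, scored in a list of Nr4a2 chromatin immunoprecipitation sequencing (ChIP-seq) peaks from BV2 cells, an immortalised mouse microglial line. The members were chosen by symbol: all protein-coding RefSeq genes on chromosomes 1 to 19 and X whose symbol begins with Hsp followed by a letter from a to h or a digit, or with Dnaja, Dnajb or Dnajc. This gave 75 of 21631 coding genes, 30 with Hsp symbols and 45 with Dnaj symbols. The choice was made with the peaks at Hsp90ab1, Hsp90aa1 and Dnajb9 already known, so all counts are descriptions and no test was run. The study compared 1 library of DNA precipitated with an anti-Nr4a2 antibody with 1 library of input DNA from the same line. The labels name no genotype or treatment, while the library names in the file header carry the tag H2O2. There were no replicates, so no value below carries a measure of variation between cultures. Intervals cover only counting error or, for the median distance, the spread over genes. Nr4a2 is an orphan nuclear receptor that binds DNA as a monomer or dimer.

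Molecular chaperones bind unfolded or partly folded proteins and help them fold, assemble or be degraded. HSP70 proteins work through cycles of ATP binding and hydrolysis, and the J domain of DnaJ proteins starts that hydrolysis and brings in the clients. HSP90 acts later on a narrower set of clients such as kinases and steroid receptors, small HSPs hold unfolded proteins without ATP, and the chaperonins enclose them in a chamber. When proteins unfold in the cytosol, the factor HSF1 binds heat shock elements, inverted repeats of the word GAA, in the promoters of many of these genes. Chaperones of the endoplasmic reticulum answer instead to the unfolded protein response. Not every symbol in the set names a chaperone: Hspg2 encodes perlecan, a matrix proteoglycan, Hspbp1 an HSP70 exchange factor and Hspbap1 a binding protein of a small HSP, while Hspb11 encodes a subunit of the intraflagellar transport machinery.

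Promoter sequences, 250 bases before to 50 after a start site, came from RefSeq on assembly GRCm38.p6, the release that corresponds to mm10. An entry matched 61 of the 75 members. Dnajc2, Dnajc5, Dnajc5b, Dnajc11, Dnajc12, Dnajc18, Dnajc22, Dnajc30, Hsp90aa1, Hsp90ab1, Hspa8, Hspa9, Hspa13 and Hspb2 had none. A peak overlapped the window of 0 of the 61, against 0.648% of 17274 coding genes with an entry. The windows below are those on which the results turn. They are the window under the strongest peak nearest to a member, the promoter of Hspa1b near that peak, and those of Hspd1 and Dnajb9. Of the 61 members with an entry, only Dnajb9 had a summit within 1000 bp of a start site. The window under the strongest peak belongs to the long non-coding RNA gene 1110038B12Rik (chr17:34952419-34952718, minus strand). Its 148 bases under the peak are in capitals, and the summit lay 213 bp upstream of this start site.
1110038B12Rik: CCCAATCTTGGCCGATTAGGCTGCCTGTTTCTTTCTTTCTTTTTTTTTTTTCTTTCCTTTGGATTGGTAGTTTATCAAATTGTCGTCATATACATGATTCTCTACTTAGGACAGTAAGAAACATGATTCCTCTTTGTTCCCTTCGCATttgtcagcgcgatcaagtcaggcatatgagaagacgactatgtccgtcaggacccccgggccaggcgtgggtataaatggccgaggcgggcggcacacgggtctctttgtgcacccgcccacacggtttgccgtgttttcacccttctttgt
The Hspa1b window (chr17:34959189-34959488, minus strand) holds 1 copy of the heat shock word GAANNTTC, in capitals, 104 bases before the start site, and its start site was 6557 bp from the same summit.
Hspa1b: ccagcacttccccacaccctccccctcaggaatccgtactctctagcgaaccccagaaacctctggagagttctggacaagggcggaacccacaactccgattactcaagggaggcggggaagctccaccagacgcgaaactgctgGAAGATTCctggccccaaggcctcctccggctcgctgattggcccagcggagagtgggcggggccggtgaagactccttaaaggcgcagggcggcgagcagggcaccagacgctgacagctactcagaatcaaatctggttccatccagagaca
One of the Hspd1 windows (chr1:55087883-55088182, minus strand) holds 3 overlapping heat shock words, TTCCGGAA, GAAGGTTC and TTCTAGAA, and 1 copy of the Nr4a monomer element AAAGGTCA as its complement TGACCTTT, all in capitals.
Hspd1: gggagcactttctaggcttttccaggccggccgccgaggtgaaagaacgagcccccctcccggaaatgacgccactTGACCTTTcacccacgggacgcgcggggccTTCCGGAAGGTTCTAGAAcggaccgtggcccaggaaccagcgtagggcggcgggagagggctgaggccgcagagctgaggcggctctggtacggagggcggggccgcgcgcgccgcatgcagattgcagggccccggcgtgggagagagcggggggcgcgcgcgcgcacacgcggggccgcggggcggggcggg
The Dnajb9 window (chr12:44210019-44210318, minus strand) holds neither kind of word, and its CCAAT box and GC box are in capitals.
Dnajb9: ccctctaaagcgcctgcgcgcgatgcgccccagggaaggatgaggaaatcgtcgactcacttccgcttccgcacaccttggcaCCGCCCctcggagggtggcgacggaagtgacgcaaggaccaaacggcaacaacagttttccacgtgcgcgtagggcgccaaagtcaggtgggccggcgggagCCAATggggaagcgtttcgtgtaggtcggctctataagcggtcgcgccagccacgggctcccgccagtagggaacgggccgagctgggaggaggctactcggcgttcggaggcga

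At the ends of genes, 5 of the 75 members (6.67%, exact 95% interval 2.2 to 14.9) had a peak summit within 1000 bp of either end of the gene record, where all coding genes had one in 2.39% of cases. The interval includes that background. The 5 were the HSP90 genes Hsp90aa1 and Hsp90ab1, the HSP70 gene Hspa2 and the J protein genes Dnajb9 and Dnajc2. Peaks at Hsp90aa1, Hsp90ab1 and Dnajb9 were known when the set was chosen. The members' share and its interval are therefore no measure of enrichment over the background. At the deposited q-values, 3 of the 75 members (4.0%) had a gene-end peak with a q of at most 0.05, against 1.20% of coding genes. These were Hspa2, Hsp90aa1 and Hsp90ab1. The gap around the 1000 bp limit was wide: the member just inside it was Hsp90ab1 at 563 bp and the one just outside was Dnajc13 at 2210 bp.

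Hsp90aa1, the stress-inducible cytosolic HSP90 gene, had a peak at each end. The gene lies on chromosome 12 at 110691036 to 110696395. A peak at chr12:110696496-110696779 had 15 tags at its summit over a local background of 3.11 tags, which is 3.89-fold, with a −log10 q of 2.04. The summit lay 154 bp outside the upper end of the gene record, and no other coding gene had an end within 1000 bp of it. The other peak, at chr12:110691820-110691998, had 13 tags over 2.21, a fold of 4.36 and a −log10 q of 2.18. That summit was inside the gene, 878 bp from its lower end. Peaks at both ends were found at 7 of 21631 coding genes (0.0324%), which is 1.36% of the genes with a gene-end peak. Hsp90aa1 was the only member among them, and peaks at this gene were known when the set was chosen. The height of 15 tags was the highest of any peak assigned to a member, but the background under it was also the highest of these peaks, so its fold ranked below that of the lower peak at the other end.

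Hsp90ab1, which encodes the constitutive cytosolic HSP90, lies on chromosome 17 at 45567778 to 45573261. Its peak, at chr17:45567119-45567282, had 13 tags over a background of 2.08, a fold of 4.55 and a −log10 q of 2.26. The summit was 563 bp below the lower end of Hsp90ab1 and inside the neighbouring gene Slc35b2, which encodes a transporter of the sulfate donor PAPS, 456 bp from its end. By nearest gene end this peak therefore belonged to Slc35b2. Hsp90b1, the HSP90 of the endoplasmic reticulum, was far from any peak, at 974 kb. Another HSP90 gene, Trap1, which encodes the mitochondrial form, falls outside the symbol rule and stood in the list of HSP90 partners. It had a peak of 11 tags, 4.10-fold and a −log10 q of 1.76 at chr16:4077603-4077766, with the summit inside the gene 201 bp from its start. In that list of 14 genes, Trap1 was the only 1 with a gene-end peak. The peaks at Hsp90aa1 and Hsp90ab1 were known when the set was chosen, and no pattern by cell compartment was tested.

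**Figure D1:**
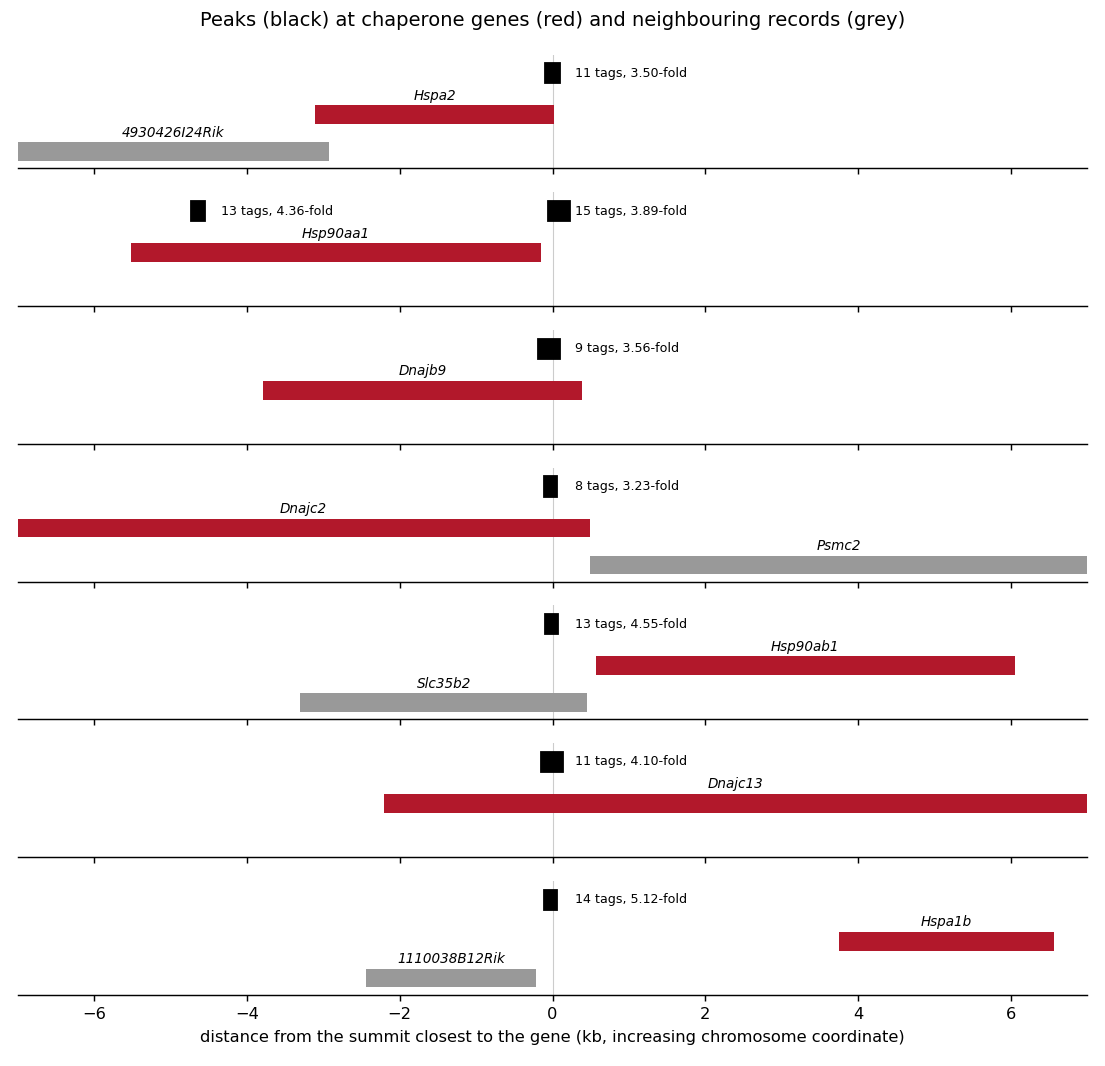
Peaks at the 7 members closest to a summit, as distance in kb from that summit with chromosome coordinates increasing to the right; red bars are members, grey bars neighbouring coding or long non-coding records and black boxes peaks with their tags and fold. Hsp90aa1 has peaks of 15 and 13 tags at its ends, and the peaks at Hsp90ab1 and Hspa1b lie in or beside a neighbouring record.

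Hspa2, an HSP70 gene known for its high level in male germ cells, had the summit closest to an end of all members. The gene lies on chromosome 12 at 76403812 to 76406938 and its peak at chr12:76406812-76407018. The peak had 11 tags over a background of 2.43, a fold of 3.50 and a −log10 q of 1.31, just past the q of 0.05 (1.30). Its summit lay 22 bp inside the upper end of the record. Hspa2 is transcribed from the plus strand, so this is the downstream end, 2546 bp beyond the start site.

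Dnajb9 encodes an endoplasmic reticulum J protein that works with the HSP70 BiP and is induced by the unfolded protein response. The gene lies on chromosome 12 at 44205897 to 44210068. Its peak at chr12:44209491-44209775 had 9 tags over a background of 1.81, a fold of 3.56 and a q above 0.05 (−log10 q of 1.08). The summit was 385 bp inside the gene from its start site, and the peak ended 244 bp short of the promoter window printed above. Dnajb9 was also the nearest coding gene of 4 further peaks, at 30.8, 62.3, 480 and 934 kb, with folds of 3.50, 3.56, 2.69 and 3.23. Its ends were the nearest over 1159 kb of the chromosome, the widest such stretch among the members, and 0.809% of coding genes were nearest to 5 or more peaks.

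Dnajc2 encodes a ribosome-associated J protein. Its peak on chromosome 5, at chr5:21784669-21784837, was the weakest of the gene-end peaks, with 8 tags over the genome-wide background, a fold of 3.23 and a −log10 q of 0.76. The summit was 485 bp inside Dnajc2, which ends at 21785264, and 496 bp from Psmc2, a proteasome subunit gene that starts at 21785275. The peak was counted for Dnajc2, but such near-equal distances do not settle which gene of this adjoining pair it belongs to.

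Where the RefSeq entry gave the strand, a summit lay within 1000 bp of a start site in 1 of 61 members, Dnajb9, against 1.76% of 17274 coding genes. It lay within 1000 bp of the downstream end in 1 of 61, Hspa2, against 0.915%. Hsp90aa1, Hsp90ab1 and Dnajc2 were not among the 61.

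With the window widened to 3000 bp, 6 of 75 members (8.0%, interval 2.99 to 16.6) had a summit near an end, against 5.18% of coding genes. The added gene was Dnajc13, which encodes an endosomal J protein. Its peak at chr9:104153657-104153941 had 11 tags over 1.93, a fold of 4.10 and a −log10 q of 1.76, and the summit lay inside the gene, 2210 bp from its downstream end. The next member beyond the limit was Hspa1b at 3748 bp.

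Summits lay inside 12 of the 75 genes (16.0%, interval 8.55 to 26.3), against 11.8% of coding genes, and inside or at an end of 13, against 12.7%. Of these 12, Hspa2, Hsp90aa1, Dnajb9 and Dnajc2 were described above, as was Dnajc13. In the HSP70 group, a peak of 9 tags and 2.69-fold lay inside Hspa4, a nucleotide exchange factor of the HSP110 type, 15.5 kb from its end. Hspa4 was also the nearest coding gene of a stronger peak outside it, 10.4 kb from its downstream end. That peak had 10 tags, a fold of 3.95 and a −log10 q of 1.39, against 0.54 for the peak inside. A peak of 7 tags and 2.85-fold lay inside Hspa12a, an atypical HSP70 gene, 13.2 kb from its end and nearer to Eno4. Hspd1, which encodes the mitochondrial chaperonin HSP60, held a peak of 10 tags and 3.95-fold 4.22 kb from its downstream end.

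Among J protein genes, Dnajc5b, a cysteine string protein gene, held a peak of 11 tags and 4.31-fold 4.17 kb from its end. Dnajc6, which encodes the clathrin-uncoating factor auxilin, held one of 10 tags and 3.95-fold, 49.4 kb from the nearer end of its record. That summit was 4564 bp from another RefSeq start site of Dnajc6. It also lay inside the long non-coding RNA gene Gm36012, 2737 bp from the end of that record. Dnajc27, a J protein gene with a Rab-like domain, and Hspg2 each held a peak of 9 tags and 3.59-fold, 5965 bp and 28.0 kb from an end. With a q of at most 0.05, 6 members kept a summit inside, against 6.83% of coding genes. The 12 genes with a summit inside had a median length of 41.1 kb, against 16.9 kb for the other members. Per length of gene, members held 5.74 summits per Mb, 12 in 2.09 Mb, against 3.41 per Mb over all coding genes.

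By nearest gene end, 16 members (21.3%, interval 12.7 to 32.3) were the closest coding gene of at least 1 peak. The share over all coding genes was the same, 21.3%. Members had smaller territories, meaning the sequence closer to their ends than to those of other coding genes, with a median of 31.0 kb against 45.6 kb. Among coding genes in the same classes of territory and of peak number per 5 Mb (10 classes each), 14.8% were nearest to a peak, and 8.81% had a summit inside. The corresponding shares for gene ends were 2.52% within 1000 bp and 5.33% within 3000 bp. Each of these was below the members' share and within its interval. The members' shares include peaks known when the set was chosen, so these intervals are no measure of enrichment.

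**Figure D2:**
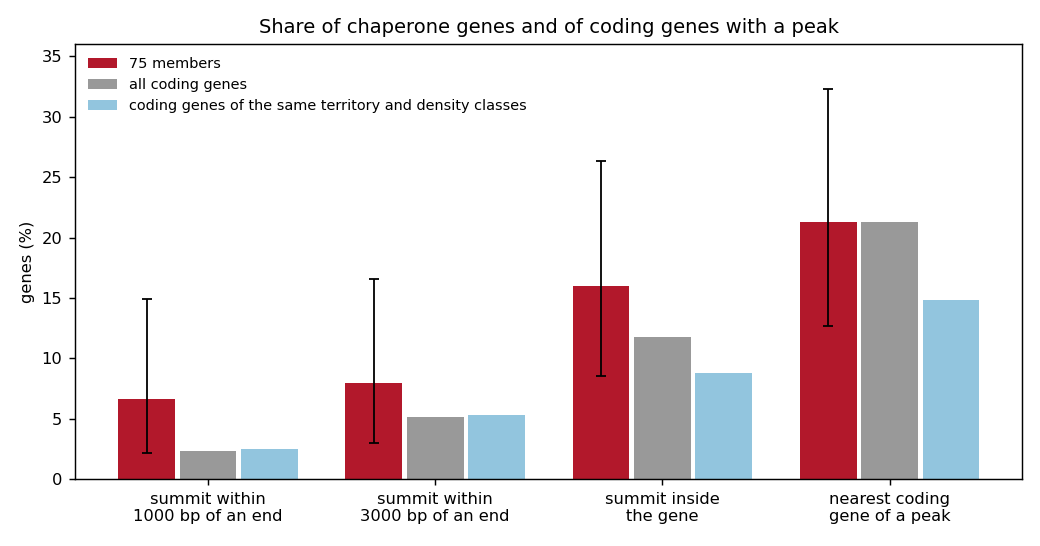
Percent of genes with a peak by 4 measures, for the 75 members (red, with exact 95% intervals as error bars), all coding genes (grey) and coding genes of the same classes of territory and local peak number, averaged over the members (blue). Members stood at 6.67% against 2.39% at gene ends, and at 21.3% against 21.3% by nearest gene.

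Another 5 members were only the nearest coding gene of a peak, with no summit inside or within 3000 bp. The strongest peak assigned to any member was of this kind. It lay at chr17:34952571-34952737 with 14 tags over 1.93, a fold of 5.12 and a −log10 q of 3.08, and 98.0% of all peaks had a fold at or below it. Its nearest coding gene was Hspa1b, a stress-inducible HSP70 gene, whose downstream end was 3748 bp away. The summit was closer to 1110038B12Rik, 210 bp from the end of that record, and 606 bp from a small nucleolar RNA gene. The same summit was the closest to Hspa1a, the other inducible HSP70 gene, at 16678 bp, and to Hspa1l, at 20022 bp.

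The promoter windows of Hspa1a and Hspa1b were identical at 296 of 300 positions (98.7%), with a longest shared run of 201 bp, longer than the 149 bp tags. Tags from such runs match both copies, so the lack of a peak over these promoters is uncertain.

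The other members reached only by nearest gene were Hspa13, Hspa9, Dnajc15 and Dnajb1. Hspa13, an HSP70 gene of the endoplasmic reticulum, was 47.1 kb from a peak of 12 tags and 4.67-fold. Hspa9, which encodes the mitochondrial HSP70, was nearest to a peak of 10 tags and 3.95-fold at 77.4 kb, while the summit closest to it, at 12.4 kb, was nearer to another gene. Dnajc15, a mitochondrial J protein gene, was 41.2 kb from a peak of 11 tags and 4.10-fold. Dnajb1, the main inducible HSP40 gene, had a peak of 9 tags and 3.25-fold 5.65 kb upstream, with a −log10 q of 0.94.

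The remaining 57 members had no summit inside, within 3000 bp or as nearest gene. Among the genes of textbook stress responses, the summit closest to Hspa5, which encodes BiP, was 83.2 kb away, and that closest to Hspa8, the constitutive cytosolic HSP70 gene, 136 kb away. Hsph1 of the HSP110 type was at 168 kb, and Hspa4l at 1980 kb. Hspe1, the chaperonin partner gene of Hspd1 on the opposite strand, was 6.10 kb from the peak inside Hspd1. Members far from any peak included Dnaja1 at 3542 kb, the highest of the set, Dnajb8 at 1373 kb and Dnajb5 at 1317 kb. The closest summit was shared with another member for 9 of the 75 genes, so distances of neighbours such as Hspa1a, Hspa1b and Hspa1l are not independent.

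Each family is small, and differences between families were not tested. Over all coding genes, 2.39% had a gene-end peak. HSP90 had 2 of 3 genes at one (interval 9.43 to 99.2), and the HSP70 and HSP110 group 1 of 14 (0.181 to 33.9). The peaks at Hsp90aa1, Hsp90ab1 and Dnajb9 were known when the set was chosen. The HSP90 count and its interval are therefore no measure of enrichment over that share. Dnajb had 1 of 13 and Dnajc 1 of 28, while Dnaja had 0 of 4, the chaperonins 0 of 2 and the other Hsp symbols 0 of 3. The small HSP symbols had no peak by any of the 4 measures, in 8 genes with Hspb11 and in 7 without it, with exact upper limits of 36.9% and 41.0% at gene ends. The closest summit to a small HSP gene was 9.91 kb from Hspb7, and Hspb1 and Hspb8 were at 165 and 118 kb. As a whole, Hsp symbols had 3 of 30 (10.0%, interval 2.11 to 26.5) and Dnaj symbols 2 of 45 (4.44%, interval 0.543 to 15.1), and these intervals overlap. By nearest gene the shares were 26.7% and 17.8%, on either side of the 21.3% of all coding genes.

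Median distances to the closest summit were 56.5 kb for the members and 98.2 kb for all coding genes. They were 0.563 kb for HSP90, 33.6 kb for the HSP70 and HSP110 group, 118 kb for the 7 small HSPs (96.7 kb with Hspb11), 34.0 kb for Dnaja, 72.1 kb for Dnajb and 72.0 kb for Dnajc. The interval of the members' median includes the 98.2 kb of all coding genes. Within 10 kb of a summit lay 16 members (21.3%), against 12.7% of coding genes. This count includes Hsp90aa1, Hsp90ab1 and Dnajb9, whose peaks were known when the set was chosen. Beyond 500 kb lay 9 members (12%), against 17.2%. The median number of peaks in the fixed 5 Mb bin that holds a gene's midpoint was 14.0 in both sets.

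**Figure D3:**
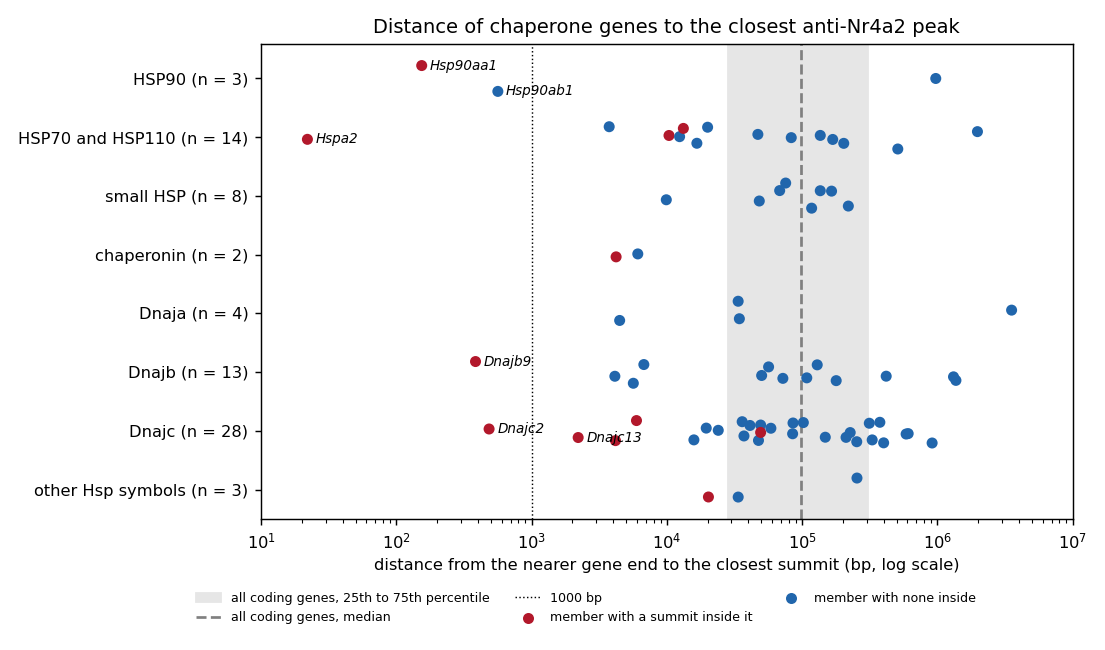
Distance in bp (log scale) from the nearer gene end to the closest summit for each of the 75 members, by family (Hspb11 among the small HSPs), with red points for genes that hold a summit. The 5 genes left of the dotted line at 1000 bp spread over the HSP90, HSP70, Dnajb and Dnajc families, and the median of all coding genes is 98.2 kb.

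Chromosome 12 held 3 of the 5 gene-end members. It had 5.76 peaks per Mb, and 4.86% of its 679 coding genes had a gene-end peak, against 2.31% of coding genes elsewhere. All 4 members on the chromosome, Hspa2, Hsp90aa1, Dnajb9 and Dnajc27, held a summit inside, against 26.7% of its coding genes (27.7% inside or at an end). Outside chromosome 12, gene-end peaks were found at 2 of 71 members, Hsp90ab1 and Dnajc2, which is 2.82%, so that there the gene-end share was near the background. Summits lay inside 8 of 71 (11.3%), the same share as the 11.3% of coding genes there. By this count, a share inside above that of coding genes was seen only with chromosome 12 included. The chromosome was set apart after seeing the data. As all 4 members on it held a summit, leaving it out lowers the members' share inside by construction. Without chromosome 12, the members' share within 3000 bp fell below that of coding genes, at 3 of 71 (4.23%) against 5.02%. By nearest gene it was 12 of 71 (16.9%) against 20.5%. Summits per Mb of member gene were then 3.93, against 3.23 over coding genes. In the 5 Mb bins of the gene-end members, peaks numbered 41 for Hspa2, 35 for Hsp90aa1, 27 for Dnajb9, 20 for Dnajc2 and 14 for Hsp90ab1. These were at or above the median of 14.0.

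In strength, the peaks of the members resembled the list as a whole. The 24 distinct peaks inside, within 3000 bp of or nearest to a member had a median fold of 3.74 (range 2.69 to 5.12) and a median of 10.0 tags, against 3.59 and 10.0 over 7648 placed peaks. A q of at most 0.05 was reached by 15 of the 24 (62.5%), against 50.5%. The 6 gene-end peaks had 8 to 15 tags, a median fold of 3.72 and a median background of 2.14 tags. The background was 1.79 tags at Dnajc2 and 1.81 at Dnajb9, close to the median of 1.79 over all placed peaks. It was higher under the other 4, from 2.08 at Hsp90ab1 to 3.11 at Hsp90aa1, and its part in these peaks was not tested.

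**Figure D4:**
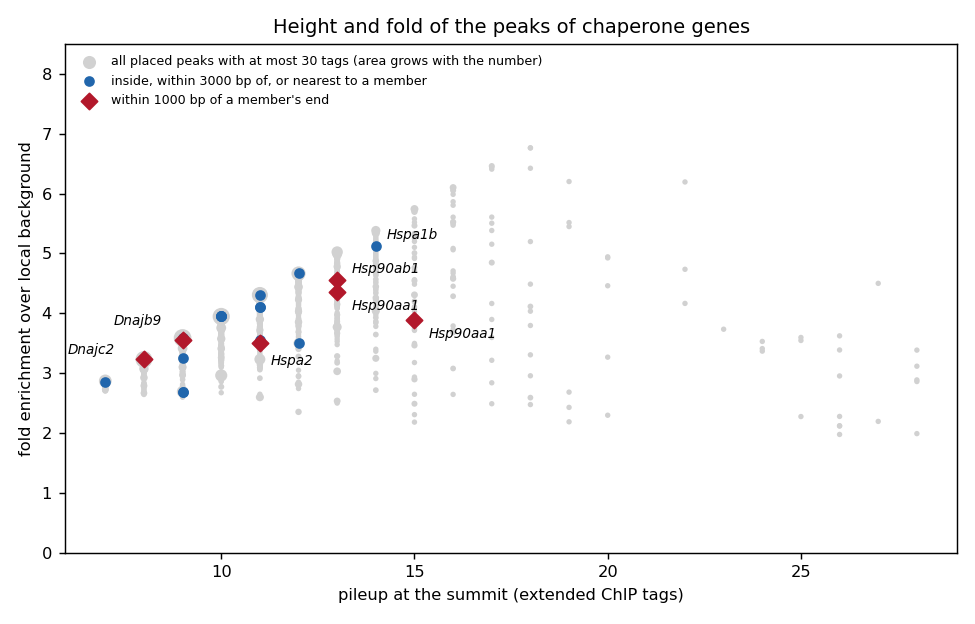
Pileup at the summit (extended ChIP tags) against fold enrichment for placed peaks with at most 30 tags (grey), peaks inside, within 3000 bp of or nearest to members (blue) and gene-end peaks of members (red). The red points run from 8 to 15 tags and 3.23 to 4.55-fold, and the peak nearest to Hspa1b reaches 5.12-fold.

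The promoters of the members were searched on both strands for words tied to heat shock and to Nr4a. The heat shock word GAANNTTC was present in 14 of 61 members (23.0%), against 8.53% of coding genes, and its other phase TTCNNGAA in 6 (9.84%), against 8.84%. The first group included Hspa1a, Hspa1b, Hspb1, Hspb8, Hsph1, Hspd1, Hspe1 and Dnaja1. Of the 14, Hspd1 and Dnajc27 held a summit, while 11.0% of the 1474 coding genes with this word did. None of the 14 had one within 1000 bp of an end, against 2.17% of those genes. Hsp90aa1, Hsp90ab1 and Dnajc2, which had gene-end peaks, could not be searched. Both phases were present in 4 members (6.56%), Dnajb6, Hsph1, Hspd1 and Hspe1, against 1.48% of coding genes, and overlapped in each of the 4. The copies of Hspd1 and Hspe1 are the same sequence, printed for Hspd1. The Nr4a monomer element AAAGGTCA was present in 3 of 61 members (4.92%), against 1.51%. These were Dnajb13 and the pair Hspd1 and Hspe1, which share 1 site at chr1:55088099-55088106. The peak inside Hspd1 lay 5730 bp from the window that holds that site. CCAAT was found in 41.0% of members against 42.7%, and the GC box GGGCGG in 73.8% against 49.8%. These are matches of letters in a 300 bp window, not sites shown to be bound.

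Other genes of protein folding were scored in the same way. In 7 lists of HSF factors, chaperone partners, the TRiC chaperonin and prefoldin, folding enzymes, the unfolded protein response and mitochondrial proteases, 2 of 81 genes (2.47%) had a gene-end peak, near the 2.39% of all coding genes. The other shares were below those of all coding genes: 4 (4.94%) held a summit, against 11.8%, and 10 (12.3%) were nearest to a peak, against 21.3%. The 81 genes had smaller territories, with a median of 28.4 kb against 45.6 kb. Shares in the same classes of territory and peak number were not computed for them, so a depletion was not tested. The 2 with a gene-end peak were Trap1 and Manf. Manf encodes a secreted factor induced by stress of the endoplasmic reticulum, and its peak of 11 tags and 4.31-fold at chr9:106887701-106887905 was 951 bp from it but 727 bp from Rbm15b. Within 3000 bp there was also Clpp, a mitochondrial protease gene, with 9 tags, 3.59-fold and a −log10 q of 1.08. The 6 genes of the HSF list, 14 HSP70 partners, 15 TRiC and prefoldin genes and 12 unfolded protein response genes had 0 gene-end peaks, with exact upper limits of 45.9%, 23.2%, 21.8% and 26.5%.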

How the data were processed

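ChIP and input DNA from BV2 cells were sequenced as 1 library each, with 20365794 and 22520884 tags after removal of duplicates, per the file headers. Reads were aligned with Bowtie2 to mm10, and MACS2 2.2.6 and ChIPseeker were listed, per the submitters' processing notes. The file headers name MACS 2.1.4, a p-value cutoff of 0.001, tags of 149 bp and fragments of 164 bp. The deposited list holds 7680 peaks, 7648 of them on chromosomes 1 to 19 and X. Its pileup is a coverage signal in extended tags, deposited by the authors. The deposited −log10 p-value and q-value compare pileup with local background, and the deposited fold is a ratio of the same, each with 1 added. The header says that q was not calculated, yet the deposited column holds values, which were used as given. Peak width and summit are in bp, per the file headers. All these are the authors' values and only describe peaks within the list.

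Local background was recovered as (pileup + 1) / fold − 1. Genes came from RefSeq on GRCm38.p6. A gene-end peak has its summit within 1000 bp of either end of a record. Territory and the number of summits per 5 Mb bin were each cut into 10 classes, and the share of coding genes in the class of each member was averaged over members. Intervals of shares are exact Clopper-Pearson intervals at 95%, and that of the median distance comes from the ranked distances of the members. Promoter words were matched on both strands, overlaps allowed. The scoring was checked on planted peaks. Analyses used Python 3.11.15, pandas 2.3.3 and scipy 1.17.1. Members with a summit inside, within 3000 bp or nearest were all named, and of the other lists those within 3000 bp; other members were named for their known stress roles or, after seeing values, for their distance. The members and lists were chosen with earlier results of these data known. Alternatives covered peak strength, window, summit or whole peak, the nearest-gene rule, 3 symbols that name no chaperone and, chosen after seeing the data, chromosome 12.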

Additional observations from a re-analysis of the deposited data

How the results depend on the processing

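Of the 75 members, 5 had a gene-end peak, 6 one within 3000 bp, 12 a summit inside, and 16 were nearest to a peak. The counts fell with the peak threshold, as fewer peaks were left by construction. With a q of at most 0.05 the gene-end count was 3 (4.0% against 1.20% of coding genes), the count inside 6 (8.0% against 6.83%) and the median distance 143 kb against 206 kb, while the median fold of 3.95 was now below that of all peaks, 4.24. With a q of at most 0.01 the counts in the first order were 2 and 2 at ends (2.67%, against 0.388% and 0.878%), 1 inside and 3 nearest, with a fold of 4.55 against 4.67 and a distance of 610 kb against 771 kb. The share inside then fell below that of coding genes (1.33% against 2.30%), as did the share nearest (4.0% against 4.72%). At 5-fold or more the counts were 0, 0, 0 and 1, against 0.0971%, 0.217%, 0.536% and 1.26% of coding genes, with a fold of 5.12 for the 1 peak left, near Hspa1b. The distance turned, to 3954 kb over the 73 members whose chromosome kept a peak against 3354 kb for coding genes. Counting gene records of any type as nearest left 10 members (13.3% against 15.2%). Without chromosome 12, an alternative chosen after seeing the data, 2 members had a gene-end peak (2.82% against 2.31%) and 3 one within 3000 bp, where the direction turned (4.23% against 5.02%). The share inside equalled that of coding genes (11.3%), the share nearest was below it (16.9% against 20.5%), and the distance was 68.3 kb against 102 kb. A window of 500 bp (4 members), any base of the peak in place of the summit, nearest by gene body (17 members) and leaving out Hspg2, Hspbp1 and Hspbap1 kept the counts they touch within 1.5 times. No paired analysis was possible because there was 1 library of each kind. Depth limits single peaks: 7 to 15 tags stood behind each member's peak.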

Other observations

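Pseudogenes of the same families were scored as well. None of 17 pseudogene records with Hsp or Dnaj symbols on the chromosomes used had a summit inside or within 1000 bp, and the median distance was 166 kb. Over all coding genes, 2.39% had a gene-end peak, 11.8% held a summit and the median distance was 98.2 kb. A difference of these 17 records from coding genes was not tested. Hspd1-ps2 on chromosome 8 was 1860 bp from a peak of 16 tags, 6.10-fold and a −log10 q of 4.64, at chr8:62490330-62490538. That peak was stronger than any assigned to a coding member. Hspd1-ps3 on chromosome 11 was 3530 bp from a peak of 11 tags and 4.31-fold. Pseudogenes share sequence with their parent genes, so tags in these records are uncertain, but both summits lay outside them.

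Dnajb13, a J protein gene of sperm flagella, carries the Nr4a monomer element in its promoter window and was 4128 bp from a summit of 11 tags and 4.27-fold. Its start site was 13243 bp from that summit. Dnajb3 was 6761 bp from a peak with 15 tags but only 2.31-fold, since the background under it was 5.93 tags.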
